A study of Mus musculus with 4 samples.

Results

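The genes described here are 37 transcription factors of the islet and the developing pancreas, found by symbol in the table of all genes, which holds 38923 symbols. All 37 were present, in 38 rows because Glis3 has a second row, listed at 0 in every library. By role they were sorted into 7 beta cell factors, 9 factors shared by islet endocrine cells, the 4 endodermal and islet regulators Foxa1, Foxa2, Hnf4a and Glis3, 3 alpha cell factors, 1 delta cell factor, 10 factors of progenitor, duct or acinar cells and 3 further islet factors. Levels were measured in sorted islet cells of MIP-GFP mice, males of the C57BL/6 strain at 6 to 8 weeks of age, in which the insulin 1 promoter drives green fluorescent protein. Insulin-positive cells were sorted by the surface glucose transporter Glut2 into a low gate (Glut2L) and a high gate (Glut2H). Each gate came from mice injected with 200 mg/kg of streptozotocin (STZ), a toxin that enters beta cells through Glut2, in which diabetes was established 4 days later, and from mice injected with vehicle. The groups are therefore Glut2L STZ, Glut2L control, Glut2H STZ and Glut2H control, and each is 1 library. The labels give 3 mice per group, and the sources used here do not say whether mice were pooled. With 1 library per group there are no replicates, so no difference was tested, every comparison describes these libraries and no p-value is given.

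Islet cell identity is set by a network of DNA-binding proteins that activate hormone genes and each other. Neurog3 starts the endocrine programme in the embryo, Neurod1, Insm1, Nkx2-2, Pax6, Isl1 and Rfx6 carry it on in all endocrine lineages, and Pdx1, Nkx6-1 and Mafa mark and maintain beta cells. In the insulin promoters of rodents, Pdx1 and related homeodomain proteins bind sites with a TAAT core, and Neurod1 binds E boxes (CANNTG) together with a ubiquitous partner. Irx1, Irx2 and Pou3f4 belong to alpha cells, Hhex to delta cells, Ptf1a and Nr5a2 to acinar cells, and Sox9 and Onecut1 to progenitors and ducts.

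Values are FPKM, fragments mapped to a gene divided by its transcript length and by the library's number of fragments, which can be compared between genes of different length. Differences are log2 of FPKM plus 1 in the first-named library minus that in the second, over genes with at least 1 FPKM in either, and a gene is called different at 2-fold or more, a log2 value of at least 1 or at most -1. The number of reads is unknown. Deposited intervals around a value, whose level is not stated, had a median width to either side of 76.7% and 78.2% of the value in the Glut2L STZ and control libraries and of 87.2% and 84.1% in the Glut2H STZ and control libraries, over the members with at least 1 FPKM.

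Several facts of these libraries touch the results below. The transcript of Slc2a2, which encodes Glut2, went against the gate labels, at 33.7 and 41.0 FPKM in the STZ and control libraries labelled Glut2L and 10.8 and 8.74 FPKM in those labelled Glut2H. The 10 neuroendocrine granule markers, among them Chga and Scg2, had a geometric mean of 570 and 655 FPKM in the Glut2L STZ and control libraries and 179 and 169 FPKM in the Glut2H ones. Of 10 immune markers, 9 in STZ mice and 10 in control mice were lower by 2-fold or more with the Glut2L label, and their summed level was 97.6 and 71.0 FPKM in the STZ and control libraries labelled Glut2L, against 3136 and 2960 FPKM in those labelled Glut2H. The 10 acinar markers summed to 318 and 3041 FPKM in the Glut2L STZ and control libraries and to 4101 and 3787 FPKM in the Glut2H ones. Over all marker lists, only endothelial Tie1 in the Glut2L STZ library and epsilon cell Ghrl in the Glut2H control library were listed at 0. A single gene, Gm20594, held 4.15% and 3.86% of the summed FPKM in the Glut2L STZ and control libraries and 68.5% and 61.0% in the Glut2H ones. The part of other cell types in the results was not tested, and in bulk samples fewer cells of a type cannot be told apart from less RNA per cell. Each library enters a gate comparison and a treatment comparison, so those comparisons share libraries.

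The promoters of 2 hormone genes that these factors regulate and of 2 members whose levels differed between the gates in both treatments are shown, as the stretch of 250 bases before the annotated start (RefSeq, GRCm38.p6), written 5′ to 3′ on the gene's strand. Capitals mark TAAT and CANNTG, on either strand.
Ins1 (chr19:52264047-52264296, plus strand): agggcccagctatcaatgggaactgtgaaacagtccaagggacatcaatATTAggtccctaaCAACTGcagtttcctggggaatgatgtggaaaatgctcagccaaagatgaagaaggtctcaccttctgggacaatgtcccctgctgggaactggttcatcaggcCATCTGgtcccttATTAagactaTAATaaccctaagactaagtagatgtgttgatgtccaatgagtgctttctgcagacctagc
Gcg (chr2:62483654-62483903, minus strand): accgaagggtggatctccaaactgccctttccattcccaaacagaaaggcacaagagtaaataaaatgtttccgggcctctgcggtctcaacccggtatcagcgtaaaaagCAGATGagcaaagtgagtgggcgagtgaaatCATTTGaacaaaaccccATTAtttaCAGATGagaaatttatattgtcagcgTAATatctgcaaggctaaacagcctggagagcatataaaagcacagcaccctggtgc
Isl1 (chr13:116309689-116309938, minus strand): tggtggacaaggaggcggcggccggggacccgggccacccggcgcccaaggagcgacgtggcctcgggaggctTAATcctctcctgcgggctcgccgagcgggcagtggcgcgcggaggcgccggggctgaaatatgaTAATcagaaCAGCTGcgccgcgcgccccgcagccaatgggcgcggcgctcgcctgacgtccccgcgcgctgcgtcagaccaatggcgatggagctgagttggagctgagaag
Myt1 (chr2:181763082-181763331, plus strand): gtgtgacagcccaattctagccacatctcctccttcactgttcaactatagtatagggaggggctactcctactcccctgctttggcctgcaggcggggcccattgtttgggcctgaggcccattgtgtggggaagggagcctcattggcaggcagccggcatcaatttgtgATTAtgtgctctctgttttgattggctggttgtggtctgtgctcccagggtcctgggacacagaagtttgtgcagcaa

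The Ins1 stretch held 3 TAAT cores and 2 E boxes, and the Gcg stretch 2 TAAT cores and 3 E boxes. The Isl1 stretch, with a GC content of 71.2%, held 2 TAAT cores and 1 E box, and the Myt1 stretch 1 TAAT core and no E box. Windows were found for 28 of the 37 members, 37 windows in all, and 64.9% of them held TAAT, beside 54.9% of the 32851 mouse windows of the same length. E boxes were in 64.9% of the members' windows and in 66.2% of all windows. The FoxA core TGTTTAC was in 5.41% of the members' windows, against 3.17% of all, the GATA core AGATAA in 13.5%, against 9.99%, and the Maf core TGCTGA in 10.8%, against 16.1%. These matches describe letters in a window and are no binding sites.

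Of the 37 members, 26 had at least 1 FPKM in every library and 30 in at least 1 library, and 16 reached 10 FPKM in some library. Pax6, a regulator of all islet hormone genes, was the most abundant member in each of the 4 libraries, at 148 and 166 FPKM in the Glut2L STZ and control libraries and 69.1 and 83.0 FPKM in the Glut2H ones. Mafa and St18, a zinc finger gene of the Myt1 family, took the next places in every library. At the other end, Pax4, a factor of beta cell development, and Pou3f4, an alpha cell factor, were listed at 0 in all 4 libraries. Foxa1, Gata4, Nr5a2, Onecut1 and Sox11 stayed under 1 FPKM throughout.

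**Figure D1:**
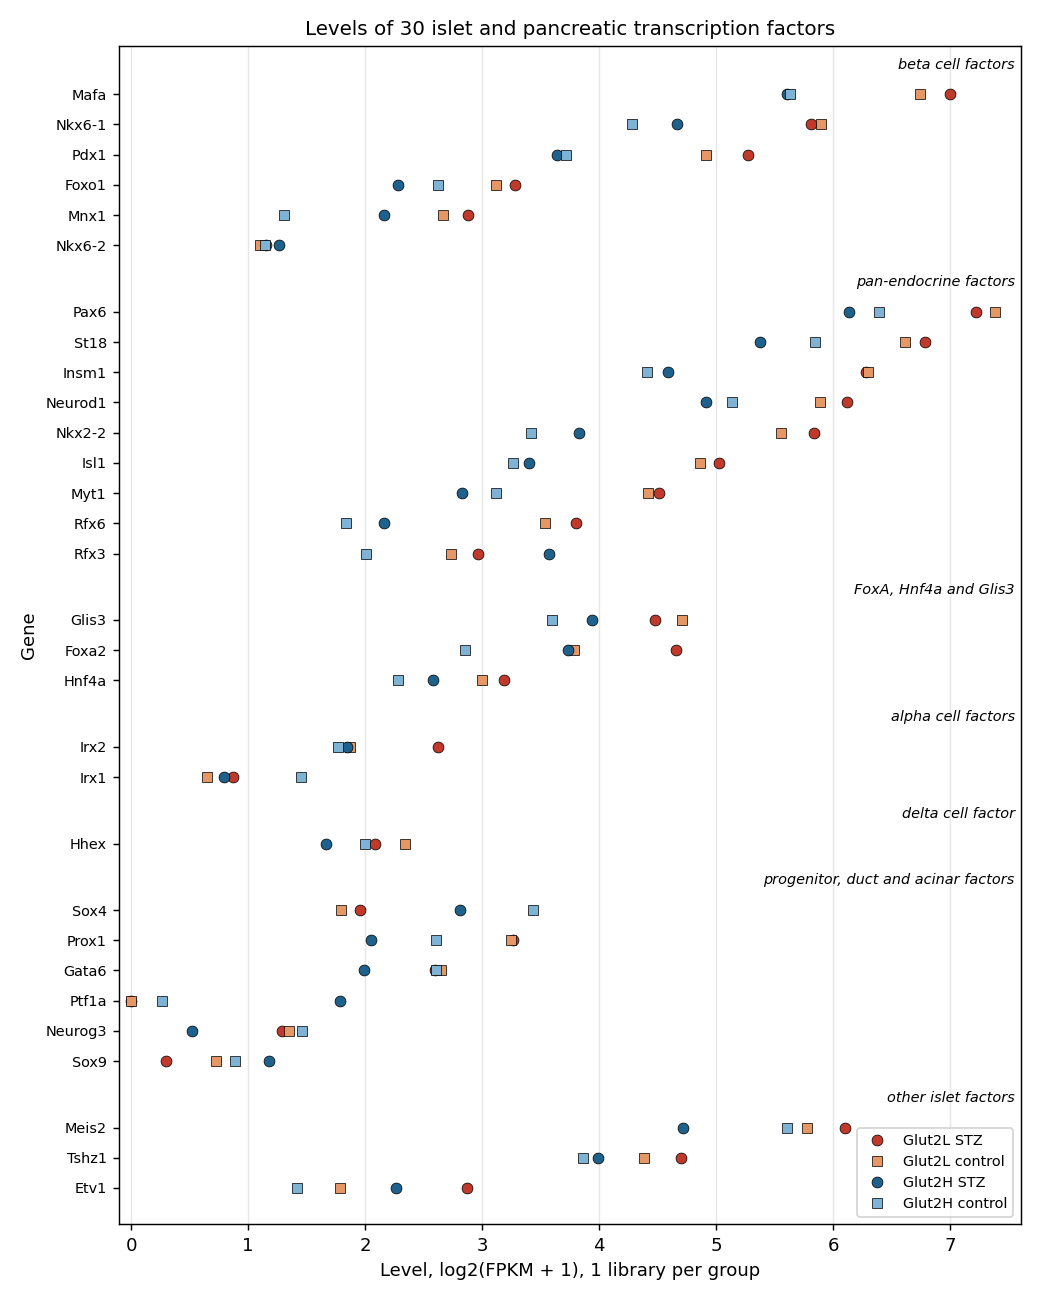
Level of each of the 30 members with at least 1 FPKM in some library, as log2 of FPKM plus 1, sorted by role (1 point per library, no replicates). For 21 of the 30 members both Glut2L points lie to the right of both Glut2H points at the deposited scale. Sox4, Ptf1a and Sox9 lie the other way round, and of these Ptf1a and Sox9 reached 1 FPKM in Glut2H STZ alone.

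The gates were compared first. In the libraries labelled Glut2L, most factors of beta cells and of endocrine cells in general stood higher than in those labelled Glut2H, while the progenitor, duct and acinar factors did not stand higher together. In STZ mice 14 of 29 measured members (48.3%) were higher by 2-fold or more with the Glut2L label, where 22.9% of all genes were, and 1 (3.45%) was at least 2-fold lower, where 17.8% were. In control mice the counts were 10 of 28 (35.7%, beside 19.7% of all genes) and 1 (3.57%, beside 18.5%). The median over the members was 0.92 in STZ mice and 0.73 in control mice, against 0.23 and 0.15 over all genes. Insm1, Isl1, Mafa, Myt1, Nkx2-2, Nkx6-1, Pdx1 and Rfx6, 8 of the 27 members measured in both treatments, were at least 2-fold higher in both, as were 8.15% of all genes. Every library was also rescaled to the same FPKM sum, which set the all-gene median at 1.19 in STZ and 0.84 in control mice. The all-gene median in STZ mice was thus itself past 2-fold higher, and shares of all genes called are not given for that scale. Then 24 members were higher and 1 lower in STZ mice and 19 and 0 in control mice. Gm20594 held 68.5% and 61.0% of that sum in the Glut2H STZ and control libraries. A sum without the 20 top rows, mitochondrial genes and loci under 300 bp was also tried. It gave 13 higher and 1 lower in STZ mice and 10 and 1 in control mice. Relative to the granule markers, the all-gene median was -1.21 in STZ and -1.47 in control mice, and the member median -0.54 and -0.92. The all-gene medians were thus themselves past 2-fold lower, so a typical gene counted as lower, and the share of all genes called is not given for this scale. On this scale 0 members were higher in either pair, and 6 in STZ mice and 13 in control mice were lower. Those lower were Glis3, Nkx6-2, Ptf1a, Rfx3, Sox4 and Sox9 in STZ mice and Foxo1, Gata6, Hhex, Irx1, Irx2, Meis2, Neurod1, Neurog3, Nkx6-2, Prox1, Sox4, St18 and Tshz1 in control mice. On that scale Nkx2-2, Insm1 and Rfx6 kept a positive difference in both treatments, Pdx1, Isl1 and Myt1 in STZ mice alone, and Mafa and Nkx6-1 were negative in both.

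Among both pairs of libraries, both Glut2L values lay above both Glut2H values for 21 of 30 members (70.0%), beside 32.7% of all genes with at least 1 FPKM. They lay below for 3 members (10%), beside 20.9% of all genes. Among these, Ptf1a and Sox9 reached 1 FPKM in Glut2H STZ alone. Of the 2-fold differences of members, 0 had deposited intervals that did not overlap, in a setting where 5.13% of all genes in STZ mice and 4.71% in control mice met both conditions.

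**Figure D2:**
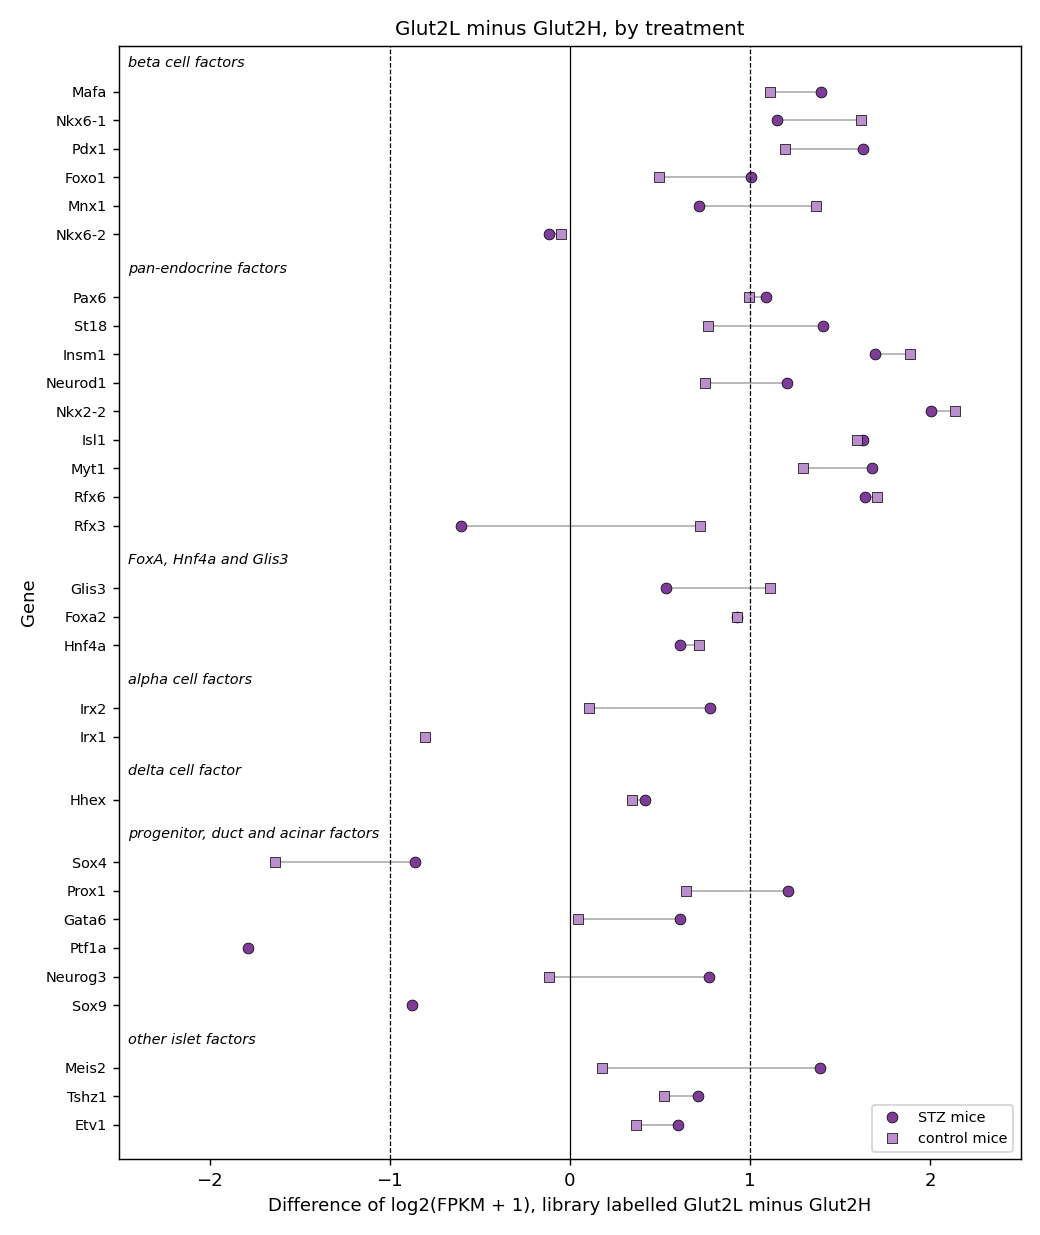
Difference of log2(FPKM + 1), the library labelled Glut2L minus that labelled Glut2H, for each measured member in STZ mice (circles) and control mice (squares), with dashed lines at 2-fold. As deposited, Nkx2-2 lies farthest to the right in both, and Rfx3 lies on opposite sides of 0. Relative to granule markers, where the all-gene median was -1.21 in STZ and -1.47 in control mice, 0 members were 2-fold higher.

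Of the beta cell factors, Pdx1 (ENSMUSG00000029644, GRCm38 chromosome 5, 147269959 to 147275848), needed for pancreas formation and insulin transcription, stood at 37.5 and 29.2 FPKM in the STZ and control libraries labelled Glut2L. In the libraries labelled Glut2H it stood at 11.5 and 12.2 FPKM, a difference of 1.63 in STZ mice and 1.19 in control mice on the log2 scale. Relative to granule markers the gate difference was 0.03 in STZ and -0.63 in control mice. As deposited the values of the gates did not overlap, and within each gate the STZ and control values were close. The deposited intervals did overlap: 13.3 to 61.8 FPKM in Glut2L STZ and 3.81 to 19.2 FPKM in Glut2H STZ, and 10.02 to 48.3 FPKM in Glut2L control and 4.29 to 20.1 FPKM in Glut2H control.

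Mafa (ENSMUSG00000047591, chromosome 15, 75745490 to 75748228), an activator of the insulin genes in mature beta cells, had 127 and 106 FPKM in the STZ and control libraries labelled Glut2L and 47.8 and 48.4 FPKM in those labelled Glut2H. Both Glut2L values of Mafa lay above the upper bounds of their own intervals, 126 and 103 FPKM. Nkx6-1 (ENSMUSG00000035187, chromosome 5, 101658139 to 101664996), which keeps beta cells from adopting other islet fates, was at 55.2 and 58.5 FPKM with the Glut2L label, against 24.4 and 18.4 FPKM with the Glut2H label. For both genes the gate values were apart as deposited and the treatments close together, but the deposited intervals of the gates overlapped in both treatments. Relative to granule markers the gate differences were -0.27 in STZ and -0.79 in control mice for Mafa and -0.49 and -0.25 for Nkx6-1. The all-gene medians on that scale were -1.21 and -1.47.

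Mnx1, a homeodomain factor of beta cells, was a lower-abundance member, at 6.36 and 5.36 FPKM in Glut2L STZ and control and 3.48 and 1.47 FPKM in Glut2H STZ and control. Its gate difference was 0.72 in STZ mice and 1.36 in control mice, the second -0.05 relative to granule markers. Foxo1, the forkhead factor that insulin signalling keeps out of the nucleus, was at 8.71 and 7.67 FPKM in Glut2L STZ and control and 3.85 and 5.16 FPKM in the Glut2H libraries, just past the 2-fold line in STZ mice (1.002) and under it in control mice (0.49). Nkx6-2, the paralogue of Nkx6-1, stayed between 1.14 and 1.40 FPKM in all 4 libraries. Of the 6 measured beta cell factors, 4 in STZ mice and 4 in control mice were at least 2-fold higher with the Glut2L label, where 22.9% and 19.7% of all genes were. The medians of these factors were 1.07 and 1.15, but relative to the granule markers the medians turned to -0.46 and -0.71. On that scale the median over all genes was -1.21 in STZ and -1.47 in control mice.

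The pan-endocrine factors held the member with the largest gate difference in both treatments. Nkx2-2 (ENSMUSG00000027434, chromosome 2, 147177546 to 147194243), required for the formation of beta cells, stood at 56.0 and 46.0 FPKM in Glut2L STZ and control, against 13.2 and 9.69 FPKM in Glut2H STZ and control. The log2 difference was 2.002 in STZ mice and 2.14 in control mice, and 0.39 and 0.30 relative to granule markers. Its intervals ran from 16.7 to 95.3 FPKM in Glut2L STZ and from 1.99 to 24.8 FPKM in Glut2H STZ, and so overlapped.

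Insm1 (ENSMUSG00000068154, chromosome 2, 146221921 to 146225020), a zinc finger factor of endocrine differentiation, had 76.8 and 77.7 FPKM in the STZ and control libraries labelled Glut2L and 23.0 and 20.3 FPKM in those labelled Glut2H. Rfx6 (ENSMUSG00000019900, chromosome 10, 51677756 to 51730432), which acts downstream of Neurog3, had 12.9 and 10.6 FPKM in the STZ and control libraries labelled Glut2L and 3.48 and 2.56 FPKM in those labelled Glut2H. Isl1 (ENSMUSG00000042258, chromosome 13, 116298281 to 116309689), a LIM homeodomain factor whose promoter is shown above, had 31.5 and 28.0 FPKM in Glut2L STZ and control and 9.54 and 8.63 FPKM in Glut2H STZ and control. In each of these genes both Glut2L values were above both Glut2H values as deposited, with gate differences between 1.59 and 1.89 on the log2 scale. The deposited intervals of the gates overlapped for each of them. Relative to granule markers the differences lay between -0.21 (Isl1 in control mice) and 0.19 (Rfx6 in STZ mice).

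Myt1 (ENSMUSG00000010505, chromosome 2, 181763332 to 181827797), a zinc finger factor of endocrine progenitors and islet cells, stood at 21.7 and 20.3 FPKM in Glut2L STZ and control and 6.11 and 7.69 FPKM in Glut2H STZ and control. Its relative St18 was at 109 and 96.8 FPKM in Glut2L STZ and control and 40.5 and 56.4 FPKM in the Glut2H libraries. Neurod1, an activator of the insulin genes, was at 68.3 and 58.0 FPKM in Glut2L STZ and control and 29.1 and 34.2 FPKM in Glut2H STZ and control. St18, Neurod1 and Pax6 passed 2-fold in STZ mice (1.41, 1.205 and 1.09) and stayed under it in control mice (0.77, 0.75 and 0.99). An exon of Neurod1 overlaps Cerkl on the same strand, which was at 23.1 and 29.8 FPKM in Glut2L STZ and control and 3.27 and 10.9 FPKM in Glut2H STZ and control, so the split of reads between them is uncertain.

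Rfx3, a factor of cilia and endocrine cells, was the exception among these 9. It stood at 6.79 FPKM in Glut2L STZ and 10.9 FPKM in Glut2H STZ, a difference of -0.61. In control mice it stood at 5.64 FPKM in Glut2L and 3.02 FPKM in Glut2H, a difference of 0.72. These opposite signs are those of the deposited scale. With an equal FPKM sum the differences were 0.41 in STZ and 1.38 in control mice, and relative to granule markers -2.09 and -0.83. In all, 8 of 9 pan-endocrine factors were at least 2-fold higher with the Glut2L label in STZ mice (median 1.63), where 22.9% of all genes were. In control mice 5 of 9 were (median 1.30), where 19.7% of all genes were. The medians relative to the granule markers were 0.04 and -0.49, beside -1.21 and -1.47 over all genes.

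Foxa2, a pioneer factor of endoderm and islets, stayed just under 2-fold in both pairs (0.92 in STZ and 0.93 in control mice). Its levels were 24.2 FPKM in Glut2L STZ against 12.3 FPKM in Glut2H STZ, and 12.8 FPKM in Glut2L control against 6.23 FPKM in Glut2H control. Hnf4a, a nuclear receptor of liver, gut and islets, was at 8.12 and 6.98 FPKM in Glut2L STZ and control and 4.97 and 3.87 FPKM in Glut2H STZ and control. Glis3, a zinc finger activator of insulin, was at 21.2 and 25.1 FPKM in Glut2L STZ and control and 14.3 and 11.1 FPKM in the Glut2H libraries, a difference of 0.53 in STZ mice and 1.11 in control mice. Foxa1 did not pass 0.439 FPKM in any library. The 3 measured genes of this group had medians of 0.61 in STZ mice and 0.93 in control mice, or -0.84 and -0.80 relative to the granule markers. The all-gene medians on the latter scale were -1.21 and -1.47.

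The alpha cell factors were low. Irx2 stood at 5.16 and 2.65 FPKM in Glut2L STZ and control and 2.59 and 2.40 FPKM in Glut2H STZ and control, so the Glut2L STZ library stood apart from the other 3. Irx1 was at 0.824 and 0.567 FPKM in Glut2L STZ and control and 0.731 and 1.74 FPKM in the Glut2H libraries. The glucagon gene Gcg, at 9893 and 4170.0 FPKM in Glut2L STZ and control and 4337 and 2287 FPKM in Glut2H STZ and control, was higher with the Glut2L label in both treatments as deposited, and lower in both relative to granule markers (-0.49 in STZ and -1.06 in control mice). The 5 alpha markers did not all go the way of Gcg as deposited: 4 were positive in STZ and 3 in control mice. Slc7a2 was lower in both (-0.69 and -0.28) and Gria3 in control mice (-0.18). As deposited, no measured alpha cell factor reached 2-fold between the gates, while relative to granule markers Irx1 (-1.76) and Irx2 (-1.27) were past 2-fold lower in control mice. The all-gene median on that scale was -1.47 in control mice, so Irx2 lay above it and Irx1 below.

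Hhex, the delta cell factor, stood at 3.24 and 4.07 FPKM in Glut2L STZ and control and 2.17 and 2.99 FPKM in Glut2H STZ and control. The gate difference was 0.42 in STZ mice and 0.34 in control mice, under 2-fold in both as deposited. It turned to -0.80 and -1.15 relative to granule markers, past 2-fold lower in control mice. On that scale the all-gene median was -1.21 in STZ and -1.47 in control mice, so Hhex lay above it in both. The delta cell hormone gene Sst was at 2604 and 2366 FPKM in Glut2L STZ and control and 2157 and 1702 FPKM in Glut2H STZ and control, and its gate differences were 0.27 and 0.47. Hhex is also known from endothelial and blood cells, and the 8 endothelial markers summed to 14.7 and 33.8 FPKM in Glut2L STZ and control and 244 and 265 FPKM in Glut2H STZ and control, whose part in the result was not tested.

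The progenitor, duct and acinar factors included the 3 members with both Glut2L values below both Glut2H values as deposited, Sox4, Ptf1a and Sox9. Ptf1a and Sox9 reached the 1 FPKM needed for this count in Glut2H STZ alone, so their direction is no support for a pattern. Sox4 (ENSMUSG00000076431, chromosome 13, 28948919 to 28953713), a factor of endocrine differentiation that also acts in lymphocytes, stood at 2.87 and 2.47 FPKM in Glut2L STZ and control and 6.03 and 9.80 FPKM in Glut2H STZ and control. As deposited the values of the gates did not overlap, though their intervals did, and the difference was -0.86 in STZ mice and -1.64 in control mice. With an equal FPKM sum the difference was 0.05 and -0.96, and relative to granule markers -2.18 and -3.15. Ptf1a, which directs the acinar fate, was listed at 0 in both Glut2L libraries and stood at 2.45 FPKM in Glut2H STZ and 0.198 FPKM in Glut2H control, beside the acinar marker sums given above. Sox9 was at 0.229 and 0.651 FPKM in Glut2L STZ and control and 1.26 and 0.844 FPKM in Glut2H STZ and control.

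Neurog3 stood at 1.45 and 1.54 FPKM in Glut2L STZ and control and 0.433 and 1.76 FPKM in Glut2H STZ and control, so the Glut2H STZ library was the low one. Prox1, a homeodomain factor of early pancreas and lymphatic vessels, was at 8.57 and 8.51 FPKM in Glut2L STZ and control and 3.14 and 5.08 FPKM in the Glut2H libraries, past 2-fold in STZ mice (1.21) and not in control mice (0.64). Gata6, a zinc finger factor of early pancreas, was between 2.97 and 5.28 FPKM in all libraries, the lowest in Glut2H STZ. Of the 10 listed genes only 6 were measured in STZ mice and 4 in control mice, with medians of -0.13 and -0.04. Those medians turned to 0.67 and 0.57 with every library rescaled to the same FPKM sum. Relative to the granule markers they were -1.12 and -1.43. The medians over all genes were 1.19 and 0.84 on the first of these scales and -1.21 and -1.47 on the second.

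Among the other islet factors, Meis2, a homeodomain cofactor, was abundant at 67.6 and 53.9 FPKM in Glut2L STZ and control and 25.3 and 47.5 FPKM in Glut2H STZ and control. It was past 2-fold in STZ mice (1.39) and close to level in control mice (0.18), and its low value was that of Glut2H STZ. Tshz1, a zinc finger factor of beta cell maturation, was at 25.0 and 19.8 FPKM in Glut2L STZ and control and 14.9 and 13.5 FPKM in the Glut2H libraries. As deposited, neither Tshz1 nor Etv1 differed 2-fold between the gates. Relative to granule markers, Meis2 (-1.71) and Tshz1 (-1.29) were past 2-fold lower in control mice, and in STZ mice Meis2 was at -0.25 and Tshz1 at -0.89. The all-gene median on that scale was -1.21 in STZ and -1.47 in control mice, and of these values only Meis2 in control mice lay below it.

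The genes these factors act on were compared with them. Of the 12 beta cell target genes, 10 in STZ mice and 12 in control mice were higher by 2-fold or more with the Glut2L label, beside 22.9% and 19.7% of all genes. Their medians were 1.59 in STZ and 1.82 in control mice, beside 1.07 and 1.15 for the beta cell factors, and relative to granule markers -0.03 and -0.07, beside -0.46 and -0.71. Iapp, which encodes the peptide hormone amylin released with insulin, was at 12067 and 11883 FPKM in Glut2L STZ and control and 5868 and 4571 FPKM in Glut2H STZ and control, with gate differences of 1.04 and 1.38. The difference between the lists was not tested.

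**Figure D3:**
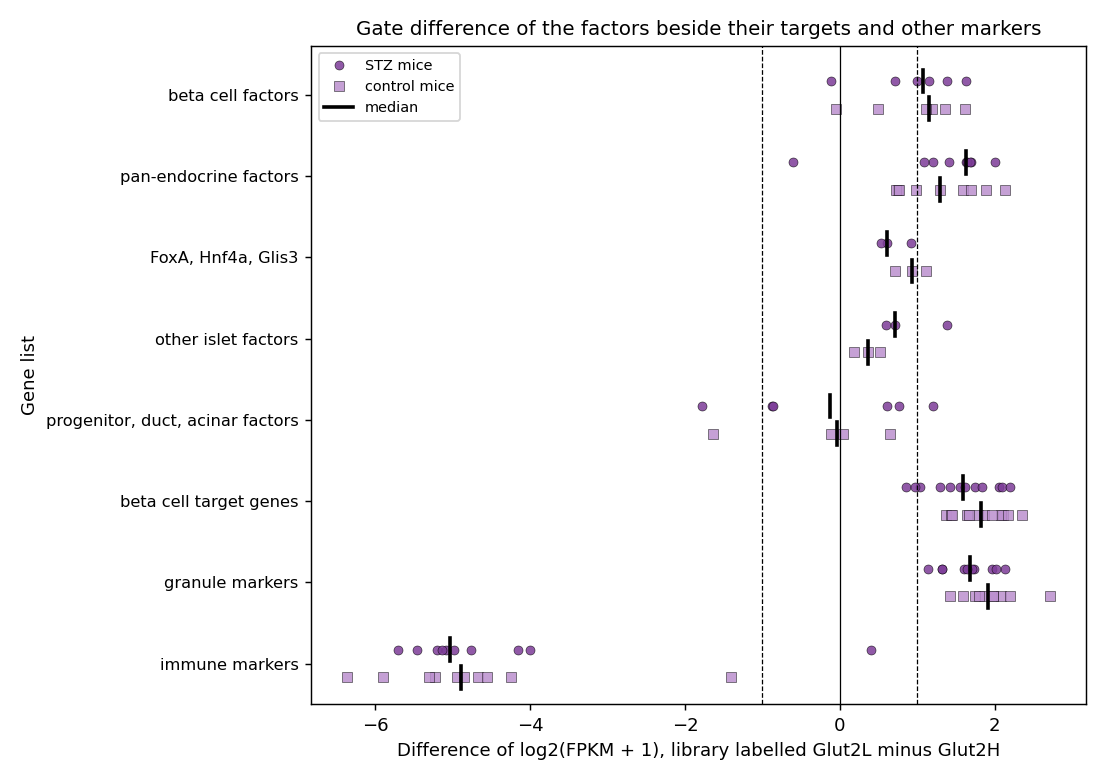
Gate difference of log2(FPKM + 1) for each measured gene of 8 lists, the library labelled Glut2L minus that labelled Glut2H, in STZ mice (circles) and control mice (squares), with the list median as a black bar and dashed lines at 2-fold. The granule markers have medians of 1.68 in STZ and 1.92 in control mice and the pan-endocrine factors 1.63 and 1.30, while immune markers lie at -5.03 and -4.90; relative to granule markers the pan-endocrine medians are 0.04 and -0.49.

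Of 22 other pancreas factors and partner proteins, 16 rows were measured in each gate comparison, and their median was 0.13 in STZ mice and 0.02 in control mice. Rbpj, which mediates Notch signals, was at 4.23 and 2.59 FPKM in Glut2L STZ and control and 7.40 and 6.98 FPKM in the Glut2H libraries.

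The comparison of STZ with control mice within a gate sets bulk libraries of different mice side by side. In it, a change within cells cannot be told apart from a change in the mix of cells. The acinar markers, for example, summed to 318 FPKM in Glut2L STZ and 3041 FPKM in Glut2L control. At the deposited scale few members differed 2-fold. In the Glut2L gate 1 of 27 measured members (3.70%) was at least 2-fold higher after STZ and 0 were lower, where 10.2% and 11.1% of all genes were. In the Glut2H gate 2 of 30 (6.67%) were higher and 0 lower, where 9.62% and 13.8% of all genes were. The medians were 0.17 in the Glut2L gate and 0.10 in the Glut2H gate, and the second turned to -0.08 with an equal sum over all rows, when 2 members were higher and 2 lower. With 1 library per group there was no test, and the count of 0 lower members says nothing of differences under 2-fold.

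Etv1, an ETS factor of islet cells, was the member past 2-fold in the Glut2L gate, at 6.30 FPKM in Glut2L STZ and 2.45 FPKM in Glut2L control, a difference of 1.08. In the Glut2H gate it was at 3.81 FPKM after STZ and 1.67 FPKM in control mice (0.85), so both STZ libraries lay above both control libraries, as for 3 of 30 members (10%) and 9.04% of all genes. Etv1 intervals overlapped, from 0.810 to 12.9 FPKM in Glut2L STZ and from 0.469 to 5.52 FPKM in Glut2L control. Nkx6-2 and Rfx3 were the other 2 such members, and Gata6 and Neurog3 lay lower in both STZ libraries (6.67%, beside 10.4% of all genes).

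Foxa2 was next, with nearly the same difference in both gates. It was at 24.2 FPKM in Glut2L STZ against 12.8 FPKM in Glut2L control (0.87), and at 12.3 FPKM in Glut2H STZ against 6.23 FPKM in Glut2H control (0.88). The Glut2H STZ library stood just below the Glut2L control library, so the treatments overlapped across the gates. Irx2 was at 5.16 FPKM in Glut2L STZ against 2.65 FPKM in Glut2L control (0.75) and at 2.59 FPKM in Glut2H STZ against 2.40 FPKM in Glut2H control (0.08). Gcg differed by 1.25 in the Glut2L gate and 0.92 in the Glut2H gate.

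In the Glut2H gate Rfx3 and Ptf1a were past 2-fold. Rfx3 stood at 10.9 FPKM in Glut2H STZ and 3.02 FPKM in Glut2H control (1.56), and at 6.79 FPKM in Glut2L STZ and 5.64 FPKM in Glut2L control (0.23). Its intervals overlapped, from 1.32 to 20.3 FPKM in Glut2H STZ and from 0.786 to 6.83 FPKM in Glut2H control. Ptf1a was at 2.45 FPKM in Glut2H STZ and 0.198 FPKM in Glut2H control (1.52), with an interval of 0 to 5.13 FPKM in the STZ library, so it rests on little signal. Neurog3 (-0.94), Meis2 (-0.89), Foxa2 (0.88), Mnx1 (0.86) and Etv1 (0.85) came nearest to 2-fold in that gate without reaching it.

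Pdx1, Mafa and Nkx6-1 stayed under 2-fold after STZ in both gates. In the Glut2L gate Pdx1 differed by 0.35, Mafa by 0.26 and Nkx6-1 by -0.08, and in the Glut2H gate by -0.08, -0.02 and 0.39. In the Glut2H gate Mnx1 differed by 0.86 and Foxo1 by -0.34. None of the 6 measured beta cell factors reached 2-fold in either gate, and their medians were 0.19 in the Glut2L gate and 0.05 in the Glut2H gate. Of all genes, 10.2% were higher and 11.1% lower in the Glut2L gate and 9.62% and 13.8% in the Glut2H gate. With 1 library per group and wide intervals, this does not show that the factors were unchanged. Ins2 was at 175841 FPKM in Glut2L STZ and 294540.0 FPKM in Glut2L control (-0.74), and at 52596 FPKM in Glut2H STZ and 57345 FPKM in Glut2H control (-0.12). Ins1, whose promoter is shown above, differed by -0.57 in the Glut2L gate and -0.08 in the Glut2H gate. Whether the factors and the insulin genes differed from each other in their response was not tested.

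**Figure D4:**
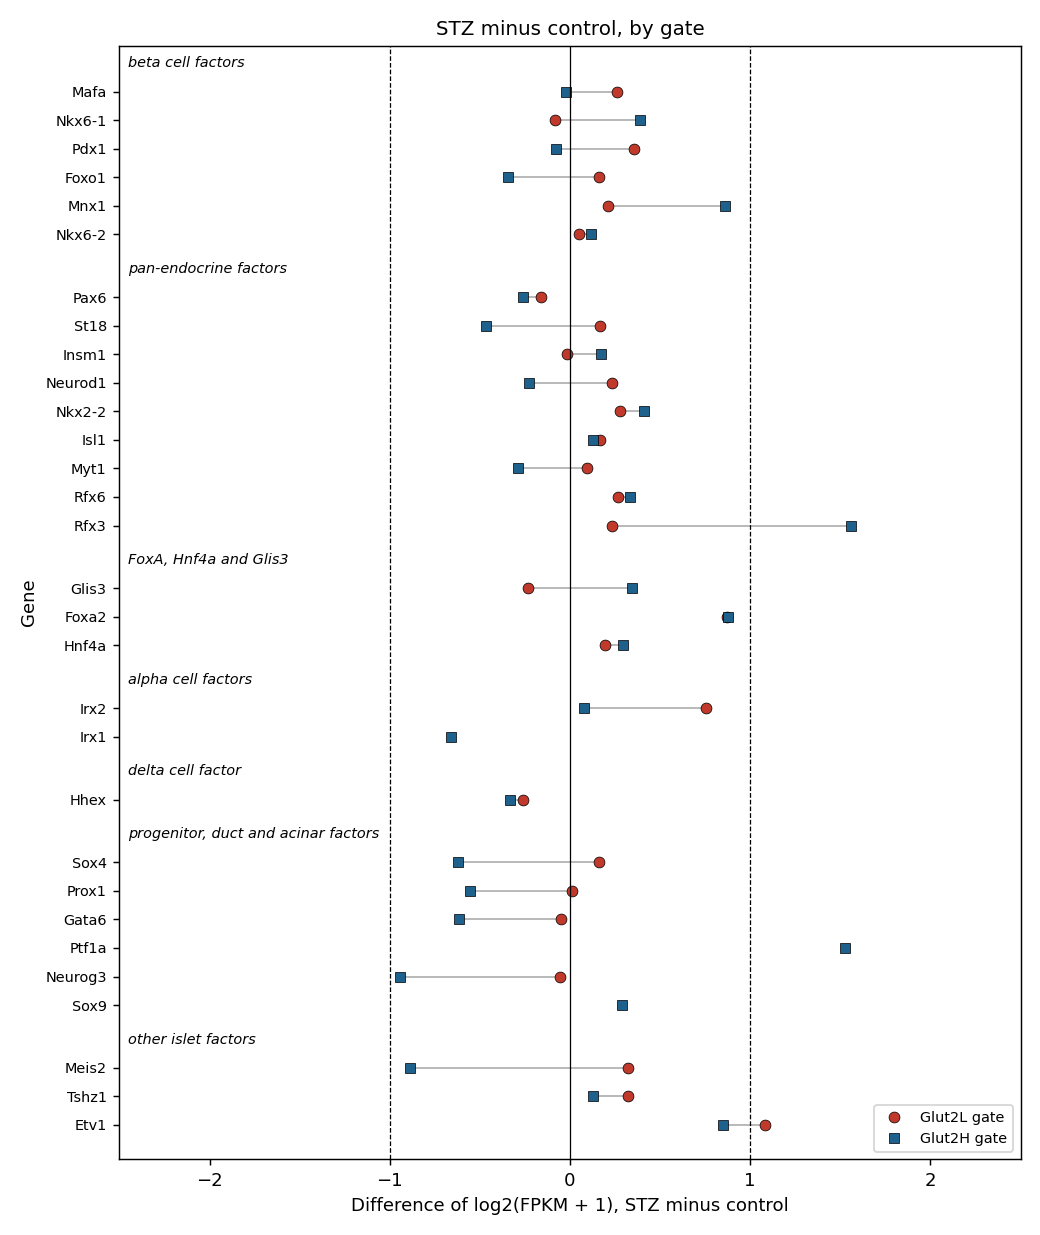
Difference of log2(FPKM + 1), STZ minus control, for each measured member in the Glut2L gate (circles) and the Glut2H gate (squares), with dashed lines at 2-fold. Etv1 in the Glut2L gate (1.08) and Rfx3 (1.56) and Ptf1a (1.52) in the Glut2H gate lie past 2-fold; Foxa2 has nearly equal values in both gates.

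Of the other pancreas factors, 0 of 16 measured rows differed 2-fold after STZ in the Glut2L gate, where 10.2% of all genes were higher and 11.1% lower. In the Glut2H gate 1 of 15 was higher and 1 lower, where 9.62% and 13.8% of all genes were. Mlxipl, the carbohydrate-responsive factor ChREBP, was at 8.88 FPKM in Glut2L STZ and 18.1 FPKM in Glut2L control (-0.95), and at 12.5 FPKM in Glut2H STZ and 3.60 FPKM in Glut2H control (1.55). Ldb1, the partner of Isl1, was at 28.8 FPKM in Glut2L STZ and 17.4 FPKM in Glut2L control (0.70), and at 15.04 FPKM in Glut2H STZ and 19.8 FPKM in Glut2H control (-0.38). Whether these STZ minus control values differed between the gates was not tested.

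The members share features that the choice by symbol did not use. Of the 37 genes, 9 (24.3%) lie on chromosome 2, which holds 8.40% of protein-coding genes. Insm1, Nkx2-2 and Foxa2 lie near each other there, with Foxa2 at 148042877 to 148046969. Homeodomain proteins are encoded by 15 members, of which 7 of 11 measured in STZ mice and 5 of 12 in control mice were higher by 2-fold or more with the Glut2L label as deposited, beside 22.9% and 19.7% of all genes, and 0 were relative to granule markers. Exons of 10 members overlap another annotated gene, 9 of them a gene on the opposite strand. Nkx6-2 overlaps Inpp5a in this way, which was at 4.72 and 14.9 FPKM in Glut2L STZ and control and 4.98 and 10.6 FPKM in Glut2H STZ and control. The library kit keeps strand, and the sources used here do not say whether the counting used it.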

How the data were processed

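Total RNA of 4 sorted populations was sequenced with 1 library each. Per the labels' protocols, libraries were strand-specific and ribosomal RNA had been depleted. Per the submitters' processing notes, TopHat2, SAMtools and Cuffdiff were used on GRCm38 (mm10); the sources used here do not give versions, annotation release or library normalization. FPKM and interval bounds were deposited by the authors, per the file headers, and the tables of single samples hold the same values (0 of 156680 differed). Depth was not recovered: among 1238 genes below 0.5 FPKM in both control libraries, the fullest bin of 0.05 on the log2 ratio held 25.

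Rows were matched by symbol and placed with GENCODE M21 (37607 of 39170 rows matched by ID). Comparisons used log2 of FPKM plus 1, at least 1 FPKM in either library and status OK in both, which holds for 37 of the 38 member rows. Python 3.11.15, numpy 2.4.6 and pandas 2.3.3 were used. The procedure was tested on simulated data. No member moved 2-fold in opposite directions between gates or treatments. The members, lists and role groups were chosen with earlier results of these data known. All 37 members are described; of other lists, the 2 highest and 2 lowest genes with at least 5 FPKM were to be named, of which only some are given, and some results are not reported here. Other settings tried were pseudocounts of 0.1 and 5, a filter of 5 FPKM or none, 1.5-fold and 3-fold, non-overlapping intervals, protein-coding genes alone, the tables of single samples, and 4 scalings: median of all genes at 0, equal sum, the same after dropping mitochondrial genes, the 20 top rows and loci shorter than 300 bp, and the median log2 ratio of the 10 granule markers at 0. Promoter windows of RefSeq reach from 250 bases before to 50 after a start, and only the part before it was searched and printed. Protein sequences were not used here.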

Additional observations from a re-analysis of the deposited data

How the results depend on the processing

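No paired analysis was possible because each group is 1 library, and for the same reason no library could be left out. With log2 differences set relative to granule markers, gate medians in STZ and control mice were -0.46 and -0.71 for beta cell factors, 0.0428 and -0.49 for pan-endocrine factors, -0.84 and -0.80 for Foxa2, Hnf4a and Glis3, -0.79 and -1.29 for other islet factors and -1.12 and -1.43 for progenitor, duct and acinar factors, whose STZ minus control median in the Glut2L gate was 0.14. On that scale 0 members were higher and 6 lower between gates in STZ mice, 0 higher and 13 lower in control mice, and 2 higher after STZ in the Glut2L gate. Members positive as deposited turned negative for 17 of 29 in STZ mice and 21 of 28 in control mice. Those of them past 2-fold as deposited were, in STZ mice, Foxo1 (-0.43), Mafa (-0.27), Meis2 (-0.25), Neurod1 (-0.44), Nkx6-1 (-0.49), Pax6 (-0.57), Prox1 (-0.19) and St18 (-0.25), and in control mice Glis3 (-0.71), Isl1 (-0.21), Mafa (-0.79), Mnx1 (-0.0461), Myt1 (-0.49), Nkx6-1 (-0.25) and Pdx1 (-0.63). By construction this scale subtracts the markers' own difference. The all-gene median on it was -1.21 in STZ and -1.47 in control mice between gates. That is near the progenitor, duct and acinar medians and below those of the other groups just given.

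With an equal sum in each library, gate medians in STZ mice were 1.60 for Foxa2, Hnf4a and Glis3, 1.78 for other islet factors and 0.67 for progenitor factors, and in control mice 1.67 for Foxa2, Hnf4a and Glis3 and 0.57 for progenitor factors. Members higher numbered 24 in STZ mice, and 19 with 0 lower in control mice. Without the top rows, mitochondrial genes and short loci in the sum, 13 members were higher in STZ and 10 in control mice. STZ minus control medians in the Glut2H gate were -0.13 for beta cell, -0.0801 for other islet and -0.0718 for pan-endocrine factors, with 2 members lower, and 0.0515 for progenitor factors in the Glut2L gate. With the all-gene median at 0, 9 members were higher and 3 lower in STZ mice, and the beta cell median was 0.84.

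At 1.5-fold, 22 members were higher and 4 lower between gates in STZ mice, 17 and 2 in control mice, 3 higher after STZ in the Glut2L gate, and 5 higher and 5 lower in the Glut2H gate. At 3-fold, 6 were higher between gates in STZ and 5 in control mice, and 0 after STZ in either gate. With intervals that do not overlap, 0 were higher or lower in any comparison. A pseudocount of 5 gave beta cell gate medians of 0.83 in STZ and 0.84 in control mice and a pan-endocrine median of 0.997 in control mice, 6 members higher in control mice, 0 lower in either pair, and 0 higher after STZ in either gate. A pseudocount of 0.1 gave 3 members lower between gates in STZ mice and 2 in control mice, 4 higher and 2 lower after STZ in the Glut2H gate, and 1.02 for Foxa2, Hnf4a and Glis3 in control mice. With a filter of 5 FPKM, the progenitor gate medians were 0.61 in STZ and 0.0461 in control mice, 0 members were lower in STZ mice, and after STZ in the Glut2H gate 1 was higher and the medians were -0.0496 for beta cell and -0.0488 for pan-endocrine factors. With no filter, the median was 0.00 for progenitor factors between gates in STZ mice and for beta cell factors after STZ in the Glut2H gate. The cause of these shifts was not tested. Shares of all genes called are not given for the other scalings, fold thresholds, pseudocounts and filters. Counts of members at those settings therefore have no background beside them. The depth is unknown, and the wide deposited intervals limit what can be said of members near 1 FPKM.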
